A study of Homo sapiens with 32 samples.

Results

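The comparison described here is the change in N6-methyladenosine (m6A) on messenger RNA between undifferentiated human embryonic stem cells (stage 0, S0) and the immature beta-like cells made from them at stage 6 (S6). It used every library labelled S0 or S6, which was 16 of the 32 libraries of the series. Both stages were sampled in H1 and MEL1, which are established human embryonic stem cell lines, with 2 replicates for each line and stage. Each of the 8 RNA preparations gave an input library, taken before immunoprecipitation, and an IP library of the fragments bound by an m6A antibody. The S6 cells were carried through the study's directed differentiation protocol and the S0 cells were not, and no other treatment or genotype is given for either group. The labels call all samples hESCs and tell the replicates apart only by a clone number. The study describes its replicates as independent biological samples, and where they were not, the p-values measure only the spread between these preparations.

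m6A is placed on adenosines of new transcripts by a writer complex built around METTL3 and METTL14, and it can be removed by the demethylases FTO and ALKBH5. Reader proteins of the YTHDF, YTHDC and IGF2BP families bind the mark and alter splicing, translation or decay of the transcript. In developing tissues the mark is known for shortening the life of transcripts that have to be cleared when cells change identity, and in beta cells for its part in keeping insulin production and cell identity.

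The measurement was made on 26104 merged peaks in 7978 genes, each peak being a stretch of a gene that was called in at least some libraries. A peak is named here by its gene and by the position that the deposited table gives for it within that gene. The IP-over-input ratio of a preparation was computed as log2(IP CPM + 1) minus log2(input CPM + 1). CPM is the read count scaled to the library total times its trimmed-mean factor, set within input and within IP libraries. A log2 ratio of 1 or more is called enriched and one of -1 or less depleted. Because of the added 1, the log2 ratio of a transcript with almost no reads lies near 0. A change is the log2 fold change of the ratio at S6 over S0 from the count model, with cell line as a covariate, and it counts as gained or lost at an edgeR adjusted p under 0.1 and at least 2-fold.

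By this rule 270 peaks in 247 genes were gained, which is 1.03% of the peaks tested, and 806 peaks in 558 genes were lost, which is 3.09%. Only 64 of the 806 were enriched at S0, so a loss here is a fall of the ratio and need not be a loss of m6A. In all, 1076 peaks (4.12%) in 787 genes changed, and 18 genes held peaks of both kinds. Losses therefore outnumbered gains under this scaling, while the median change of all peaks was -0.02. The balance depended on how the IP libraries were scaled. With library totals alone, 96 peaks were gained and 2126 lost, and the median of all peaks moved to -0.46. With upper-quartile factors the counts were 184 and 1139 at a median of -0.18. Among the 8833 peaks enriched on average, tested on their own after the data were seen, 108 were gained and 16 lost. Gains outnumbered losses in that test, but the order among enriched peaks also turned with the scaling. Of the calls over all peaks, 188 gains were enriched at S6 and 64 losses at S0. With IP libraries scaled on enriched peaks, also chosen after the data were seen, these were 103 and 171, and with library totals 61 and 380. Leaving out single preparations gave between 189 and 860 calls in all.

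**Figure D1:**
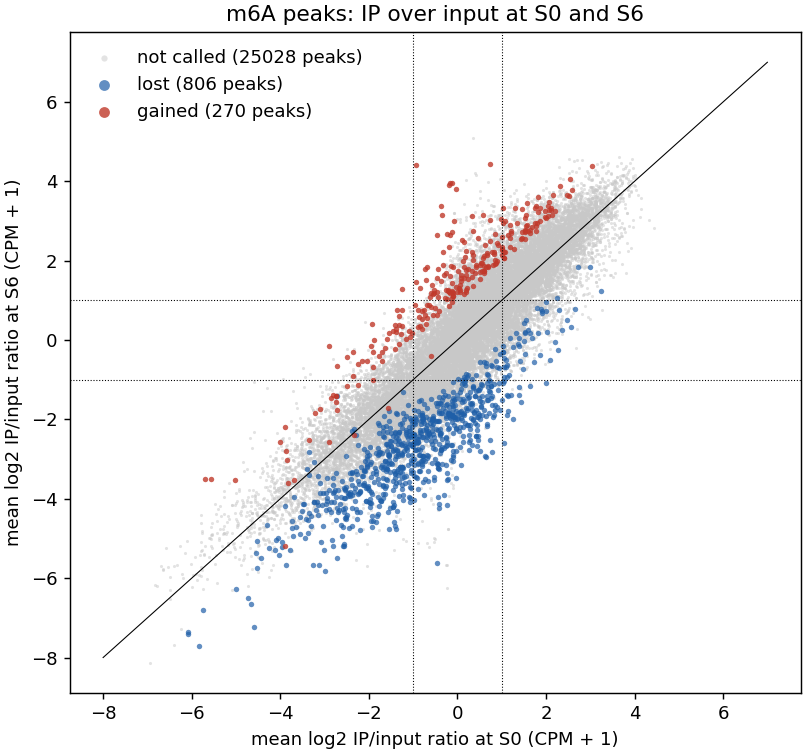
Mean log2 IP/input ratio of each peak at S0 (x axis) and S6 (y axis), over the 4 preparations of each stage, with the 270 gained peaks in red, the 806 lost peaks in blue and the other 25028 in grey. Dotted lines mark a ratio of -1 and 1 and the diagonal marks equality. Most gained peaks lie above 1 at S6, while most lost peaks lie below -1 at S6, many of them already below -1 at S0.

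The libraries held 2740861 to 6879256 input reads and 7422690 to 15674899 IP reads in these peaks, and the 2 MEL1 S6 preparations were the shallowest of each kind. Mitochondrially encoded transcripts took 26.4% to 41.0% of the input reads at S0 and 11.6% to 16.4% at S6. Replicates were closer in H1 than in MEL1: over 15373 well covered peaks the log2 ratios of the replicates correlated at 0.98 at either stage in H1, and at 0.85 (S0) and 0.93 (S6) in MEL1. Peaks with no IP read made up 1.23% to 1.90% of all peaks in the H1 preparations and 5.86% to 14.4% in those of MEL1.

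The stage labels were checked on the input reads, summed over the peaks of each gene. Of the 7924 genes tested, 1430 (18%) were higher and 1056 (13.3%) lower at S6 by the same thresholds. Among markers of pluripotency 18 of 20 genes fell and none rose. The summed level of this list went from 9450 to 14000 CPM at S0 down to 1050 to 1400 CPM at S6. LIN28A, an RNA-binding protein of stem cells, changed by -2.95, and DNMT3B, a DNA methyltransferase of early embryos, by -4.39 on the log2 scale. Among foregut endoderm factors 14 of 17 rose, and among pancreatic and endocrine transcription factors 9 of 10 rose, including PDX1, MNX1, ISL1 and GLIS3. The hormone genes INS, GCG and SST and the beta cell factors NKX6-1, NEUROD1 and MAFA were not analysed here.

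Markers of other cell types moved with the stage as well. All 7 hepatic markers measured were higher at S6, and their summed level reached 358 to 380 CPM in H1 but 8500 to 8660 CPM in MEL1, from 1.77 to 4.2 and 31.7 to 35.3 CPM at S0. The 4 duct and acinar markers summed to 1200 to 1230 CPM in H1 and 7660 to 8650 CPM in MEL1 at S6, and the 6 neural and mesenchymal markers to 3390 to 3510 CPM in H1 and 660 to 707 CPM in MEL1. None of these marker lists had a gene at 0 at S6. Their part in the m6A changes was not tested. In such bulk RNA, fewer cells of a type and less RNA per cell cannot be told apart.

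The gain with the smallest p was in IHH, which encodes Indian hedgehog, a secreted signal known from gut and bone development. Its peak at position 574 had log2 ratios of -0.99 and -0.56 in H1 and -1.31 and -0.90 in MEL1 at S0, and of 3.91 and 4.03 in H1 and 4.77 and 4.91 in MEL1 at S6. The IP reads went from between 4 and 51 per preparation at S0 to between 521 and 12250 at S6. All S6 preparations lay far above all S0 preparations, and the peak passed from below input to strongly enriched. The change was 6.25 (SE 0.30, edgeR adjusted p 1.17e-06), at 6.41 in H1 and 6.05 in MEL1. The transcript itself rose by less, at 2.31 on the log2 scale of the input. IHH was the only member with a call among the 57 peaks of Hedgehog pathway genes, 1.75% against 1.03% of all peaks, and their median change was 0.42.

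NR2F1, an orphan nuclear receptor of neural and mesenchymal development, came next. Its peak at 3301 had log2 ratios of 0.55, 0.21, -0.40 and -0.49 at S0 (H1 first), and of 3.81, 3.75, 3.72 and 3.93 at S6. The S6 values had an SD of 0.09 (n = 4) and did not overlap those of S0. The change was 3.80 (SE 0.32, edgeR adjusted p 0.000526), beside a rise of the transcript of 5.91. MAB21L2, a developmental gene known from eye and body wall, had a peak at 2101 with log2 ratios between -0.63 and 0.47 at S0 and between 2.80 and 3.22 at S6. It was called on a change of 3.42, although its MEL1 S0 input held no read, and only H1, at 3.77, had a change above 0 when the lines were fitted apart (MEL1 -0.69).

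CDX2, a homeobox factor of the intestine, gained at 223, from log2 ratios of 0.82 and -0.45 in H1 and 0.09 and -0.04 in MEL1 to 2.47 and 2.56 in H1 and 2.35 and 2.66 in MEL1. The groups did not overlap, and the change of 2.43 (edgeR adjusted p 0.0105) was close in H1 (2.42) and MEL1 (2.33). FGA, the fibrinogen alpha chain made by liver, gained at 2557, from between -1.10 and -0.18 to between 1.07 and 1.30 (change 2.23, edgeR adjusted p 0.0105). Its H1 S0 input libraries held 1 read each. At S6 it had 2232 and 1976 input reads in MEL1 against 181 and 137 in H1, and the hepatic markers as a list differed between the lines in the same direction. TNC, an extracellular matrix protein, was already enriched at S0, with log2 ratios at 7837 of 1.36, 1.34, 1.61 and 1.99, and rose to 3.40, 3.72, 3.09 and 3.57 (change 1.63). A further TNC peak, at 7087, changed by 1.54.

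Of the 12 gains with the smallest p, 5 more were in transcripts whose level fell, had no call or rose by less than in the genes above. FOXA2, the last of the 12, is described with the foregut factors. ANKRD10, an ankyrin repeat protein, had log2 ratios at 1064 of 1.78 and 1.55 in H1 and 0.64 and 0.73 in MEL1 at S0, and of 3.10, 2.85, 2.93 and 2.78 at S6. It gained 1.76 (SE 0.25, edgeR adjusted p 0.0105) while its transcript fell by 1.10. KIAA0319L, the receptor for adeno-associated virus, rose at 7530 from between -0.10 and 0.66 to between 1.91 and 2.50 (change 1.88), with no call for its transcript. SUGP2, a protein with splicing factor motifs, gained 2.14 at 5319, from between -3.95 and -2.01 to between -1.16 and -0.22. That peak stayed below input at both stages, and only 1 of its S6 preparations was still depleted. ARID3B, a DNA-binding protein, went at 3801 from a mean log2 ratio of -1.24 to 0.35, and its transcript had no call. MYO18A, an unconventional myosin, gained 1.80 at 14098 while its transcript rose by 1.29. In none of these peaks did the S0 and S6 preparations overlap.

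**Figure D2:**
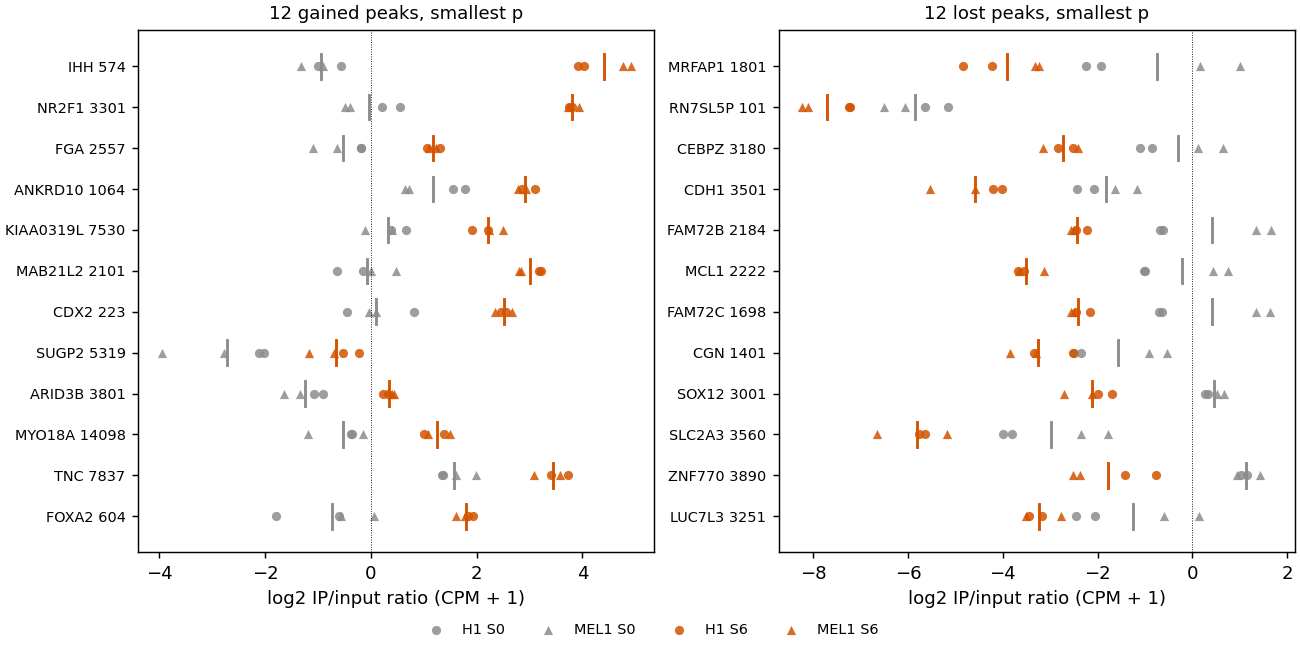
Log2 IP/input ratio (x axis) in each preparation for the 12 gained (left) and 12 lost peaks (right) with the smallest p, 1 peak per gene, circles for H1 and triangles for MEL1, grey for S0 and orange for S6. Vertical bars are means of the 4 preparations of a stage. The S6 values of IHH lie between 3.91 and 4.91 and its S0 values between -1.31 and -0.56, and in SOX12 the order is the opposite.

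Of all the lists examined, that of foregut endoderm factors held the largest share of gained peaks. Of its 61 peaks 7 (11.5%) were gained and none was lost, against 1.03% and 3.09% over all peaks, and its median change was 0.25. The gains were in 6 of its 17 genes, among them FOXA1, with 2 peaks, FOXA2, GATA6, HNF4A and TBX3. The list holds factors that the study itself singles out from these samples, so its count is not independent evidence of a direction.

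FOXA1 and FOXA2 are pioneer factors that open chromatin in early endoderm. At FOXA1 1983 the log2 ratios were -0.30 and -0.02 in H1 and -0.75 and -0.81 in MEL1 at S0, and 2.92 and 3.22 in H1 and 2.25 and 2.23 in MEL1 at S6. The change was 4.51 (SE 0.64, edgeR adjusted p 0.0105), with 10 IP and 12 input reads at S0 in all against 5152 and 299 at S6. The second FOXA1 peak, at 2433, had 3 IP and 6 input reads at S0 and 1551 and 144 at S6, and with only 3 IP reads at S0 no fold is given. FOXA2 604 moved from -1.80, -0.60, -0.57 and 0.06 to 1.83, 1.94, 1.61 and 1.79. The change was 2.94 (SE 0.48, edgeR adjusted p 0.0152), 3.84 in H1 and 1.97 in MEL1. The FOXA1 1983 and FOXA2 604 peaks thus had few reads at S0 and were enriched in all 4 S6 preparations, whereas FOXA1 2433 was at 0.85 in 1 of them.

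GATA6, a zinc finger factor needed for the human pancreas, had log2 ratios at 2251 of -0.34, -0.09, -0.22 and -0.12 at S0 and of 2.42, 2.54, 2.22 and 2.21 at S6. Its change was 2.83 (SE 0.41, edgeR adjusted p 0.0105). HNF4A, a nuclear receptor of liver, gut and beta cells, rose at 2401 from 0.04, -1.03, 0.84 and -0.33 to 2.23, 2.82, 3.09 and 2.79. The change was 3.22 (SE 0.67, edgeR adjusted p 0.0379). In both genes every S6 preparation lay above every S0 preparation. TBX3, a T-box repressor of early endoderm and liver bud, had no IP read in any S0 preparation and 8 input reads, against 262 IP reads and 36 input reads at S6.

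All of these gains were in transcripts that rose steeply. The log2 expression change was 5.88 for FOXA1, 4.80 for FOXA2, 5.04 for GATA6, 6.14 for HNF4A and 2.68 for TBX3. Their S0 ratios therefore rest on very few reads, 12 to 48 input reads over the 4 preparations in the called FOXA1 1983, FOXA2, GATA6 and HNF4A peaks. The IHH, NR2F1, FOXA1 1983 and GATA6 peaks were called under all 25 alternatives and FOXA2 604 under all 24 that gave a value. FOXA1 2433 was called under 21 of 23, HNF4A 2401 under 20 of 25 and TBX3 1651 under 15 of 23.

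None of the 23 peaks of the pancreatic and endocrine transcription factors passed the test, where 1.03% of all peaks were gained and 3.09% lost, so a list of this size would hold few calls at those shares. Of the 23, 19 had a change above 0, against 12859 of all 26104 peaks, and their median was 1.14. Only 7 of the 23 had at least 20 input reads at each stage, against 21176 of all peaks, and those 7 had a median of 0.95. In 2 of the 10 genes there was no input read at S0. PDX1, the factor that founds the pancreas, had log2 ratios at 651 of -0.30, -0.53, 0.11 and 0.25 at S0 and of 2.17, 1.75, 2.63 and 2.90 at S6 (edgeR adjusted p 0.205). It had 3 input reads at S0 in all, so no fold is given. MNX1, a homeobox factor of beta cells and motor neurons, went from between -0.72 and 0.00 at 403 to between 1.11 and 2.94 (edgeR adjusted p 0.121). Both were enriched in every S6 preparation and nearly unread at S0.

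GATA4 and SOX9 could be read at S0 and were not called either. GATA4, the partner of GATA6, had log2 ratios at 2801 of 0.11, -0.24, 2.24 and 0.69 at S0 and of 1.67, 2.14, 2.11 and 2.62 at S6. The groups overlapped, and the change of 1.38 had an edgeR adjusted p of 0.155. SOX9, a factor of pancreatic progenitors and duct, was enriched in H1 before and after, at 3.50 and 3.11 at S0 and 3.39 and 3.47 at S6, whereas MEL1 went from 0.57 and 1.38 to 3.71 and 3.35. The change of SOX9 1951 differed between the lines by 2.45 (edgeR adjusted p of the difference 0.0668).

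**Figure D3:**
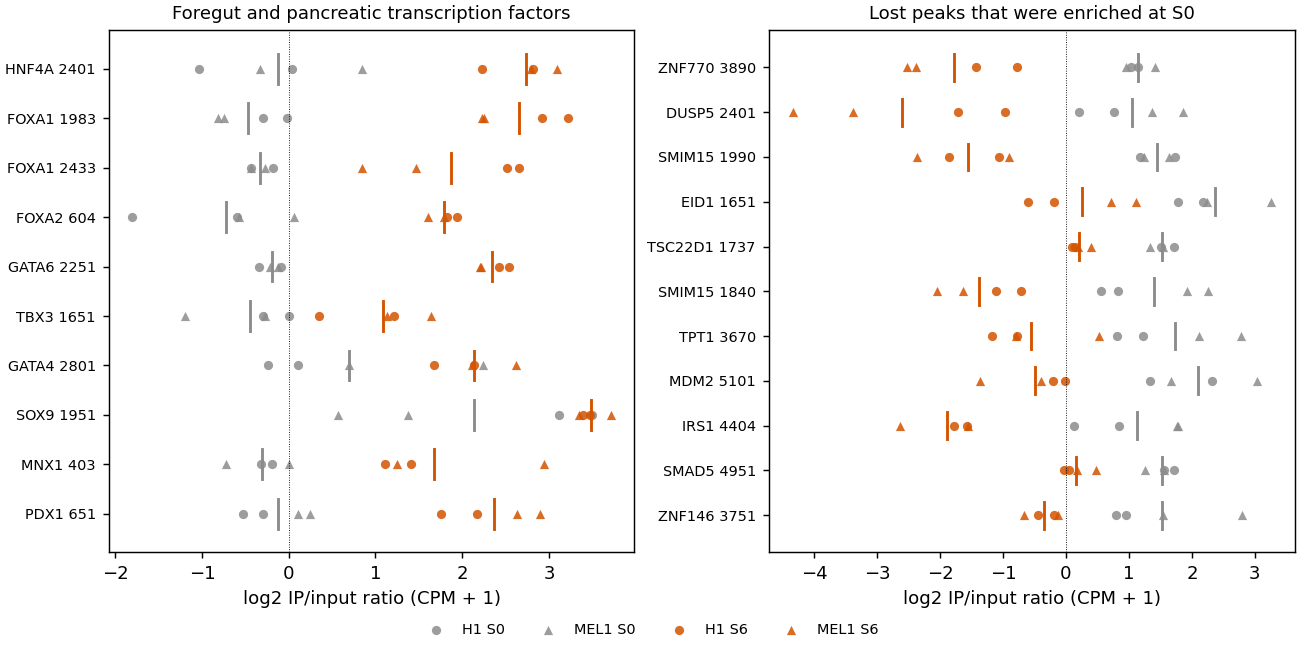
Log2 IP/input ratio (x axis) in each preparation for peaks of foregut and pancreatic transcription factors (left) and for lost peaks (right). The lost peaks are those with the smallest p among the ones enriched at S0 and not at S6. Circles mark H1, triangles MEL1, grey S0, orange S6 and vertical bars the mean of 4 preparations. GATA6 2251 goes from between -0.34 and -0.09 to between 2.21 and 2.54, GATA4 and SOX9 overlap between stages, and TSC22D1 1737 goes from between 1.33 and 1.71 to between 0.09 and 0.39.

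Gained peaks as a group changed by 1.53 at the median, between 1.0 and 9.33, and their median log2 ratio went from 0.01 at S0 to 1.73 at S6. At S0 64 of the 270 were enriched and at S6 188. The 124 that crossed into enrichment are described here after their values were seen. They included SLC40A1, the iron exporter ferroportin, with a mean log2 ratio at 1881 of -0.20 at S0 and 3.90 at S6, and FILIP1L, with -0.34 and 3.14 at 754. RSPO3, a secreted amplifier of Wnt signalling, had -0.16 and 2.65 at 2101, and POU3F2, a neural POU factor, -0.17 and 3.97 at 1251. All 4 had only 6 to 10 input reads at S0, so no fold is given for them. TARBP2 was read more deeply. This gene, which encodes a partner of Dicer, went from between -0.24 and 0.73 at 3751 to between 1.69 and 1.87, a change of 1.56 (edgeR adjusted p 0.0226) with 643 and 430 input reads at S0 and S6. Of the 124, 47 were in transcripts that rose, 8 in transcripts that fell and 69 in transcripts with no call. Over all genes tested 18% were higher and 13.3% lower. All 4 S6 ratios exceeded all 4 S0 ratios in 234 of the 270, as in 6.91% of all peaks, but the peaks were chosen on these ratios, so the share is a description.

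Genes for chromatin regulators carried calls in both directions, 8 gained (2.14%) and 14 lost (3.74%) among 374 peaks, against 1.03% and 3.09% of all peaks. NCOR1, a corepressor of nuclear receptors, gained 1.61 at 10955, from between -0.59 and 0.22 to between 1.21 and 1.58, and 1.03 at 2855. BRD3, KDM2A, EP400, NSD2 and ASXL1 each gained at a single peak, by 1.12 to 1.78. The transcripts of NCOR1, BRD3, KDM2A, EP400 and NSD2 had no expression call. Among the lost peaks, HDAC7 79, in a class IIa histone deacetylase, had 986 IP reads at S0 and 4 at S6, and CHD2 14351, in a chromatin remodeller, had 783 and 31. KDM4A, a histone demethylase, changed by -2.02 at 4701, with log2 ratios between -1.90 and -1.0 at S0 and between -3.06 and -2.96 at S6. COL1A2, a chain of type I collagen, was the gained member among the 24 peaks of neural and mesenchymal markers, with a change of 1.67 at 351. It stayed near or below input, at between -0.87 and 0.64 at S6, and was called under 12 of 24 alternatives. This single gain was 4.17% of the list.

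Few lost peaks were enriched at either stage. Their median change was -3.28, between -13.62 and -1.01, but only 64 of the 806 were enriched at S0, and 379 were depleted at both stages. All 4 S6 ratios lay below all 4 S0 ratios in 590 of the 806, as in 7.37% of all peaks, again with the peaks chosen on these ratios. Their median log2 ratio went from -0.91 to -2.62, and the median number of IP reads over the 4 preparations from 627 to 29. Many of the losses were thus in stretches whose scaled IP share was below their scaled input share at S0 and lower still at S6. At S6 34 lost peaks had no IP read in any preparation and 85 had 1 to 3. A change was also computed from counts summed over the preparations of a stage, with each sum set to at least 3 reads. Its median over the lost peaks was -3.51. It has no line term and replaces the fit in every peak, so its distance from -3.28 is not that of the floor alone. The fitted values of peaks with so few IP reads at S6 are no bound on the loss. Fitted apart, the medians were -1.99 in H1 and -4.89 in MEL1. From counts summed within each line with that floor they were -1.88 and -3.82.

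The lost peaks were chosen on these ratios, so their values by line are a description. Over all peaks the line means at S0 had a median of 0.29 in H1 and 0.24 in MEL1. Over the gained peaks, also chosen on their ratios, these medians were 0.38 in H1 and -0.27 in MEL1. At S0 the lost peaks had median log2 ratios of -1.55 and -1.59 in the H1 preparations and of -0.37 and -0.15 in those of MEL1. At S6 the medians were -2.53 and -2.49 in H1 and -2.88 and -2.67 in MEL1. The gap between the lines at S0 was not seen at S6 on this scale, but the S6 values lie near its floor, where the added 1 compresses differences, and the fitted changes of the lines differed by more. No IP read was seen in 8.81% to 10.4% of the lost peaks in the H1 S6 preparations, and in 41.4% to 44.5% in those of MEL1. With all IP libraries thinned to the depth of the shallowest, 868 peaks were lost and 275 gained, an alternative chosen after seeing the data.

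**Figure D4:**
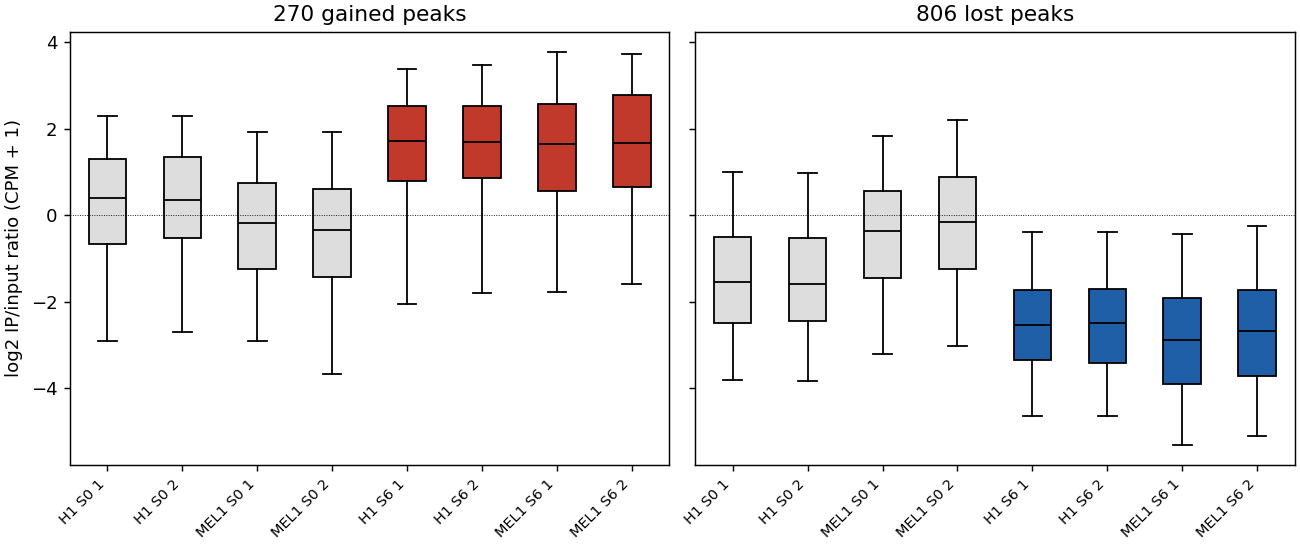
Log2 IP/input ratio (y axis) of the 270 gained peaks (left) and the 806 lost peaks (right) in each of the 8 preparations, with boxes for the quartiles, lines for the median and whiskers from the 5th to the 95th percentile. The peaks were chosen for these differences. The gained peaks sit at medians of 1.64 to 1.71 in all S6 preparations, and the lost peaks start lower in H1 than in MEL1 at S0.

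Among the 12 lost peaks with the smallest p, most were below input on average at S0. MRFAP1, a protein bound to the chromatin factor MORF4L1, had log2 ratios at 1801 of -1.93 and -2.25 in H1 and 0.15 and 1.01 in MEL1 at S0, and of -4.22, -4.84, -3.32 and -3.24 at S6. The change was -4.01 (SE 0.39, edgeR adjusted p 0.00194). CDH1, the epithelial cadherin, fell at 3501 from -2.07, -2.44, -1.64 and -1.16 to -4.02, -4.20, -5.54 and -4.59, a change of -3.79 (edgeR adjusted p 0.00660), with no call for its transcript. Both were depleted at S6 in every preparation, below all S0 values.

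MCL1, an anti-apoptotic BCL2 relative, fell at 2222 from -1.03, -1.01, 0.74 and 0.43 to -3.55, -3.68, -3.14 and -3.65, with 10, 9, 1 and 0 IP reads at S6. SLC2A3, a glucose transporter of embryonic cells, changed by -3.58 at 3560, CEBPZ, a nucleolar CCAAT-binding protein, by -3.40 at 3180 and CGN, the tight junction protein cingulin, by -3.44 at 1401. FAM72B and FAM72C, with changes of -3.36 and -3.33, are near-identical copies that share reads, so they cannot be counted as separate events, and the same holds for the 7SL pseudogene RN7SL5P (-1.87 at 101). LUC7L3, a splicing factor, had 1 IP read at 3251 over all 4 S6 preparations against 634 at S0.

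SOX12 and ZNF770 were above input at S0. SOX12, a SoxC factor of neural and pancreatic progenitors, had log2 ratios at 3001 of 0.33, 0.26, 0.52 and 0.67 at S0 and of -1.99, -1.69, -2.11 and -2.72 at S6. The change was -2.89 (SE 0.37, edgeR adjusted p 0.00891), with no call for its transcript. ZNF770, a zinc finger protein, went at 3890 from 1.15, 1.03, 0.95 and 1.42 to -1.43, -0.77, -2.53 and -2.38, a change of -3.30 (SE 0.44, edgeR adjusted p 0.0100). The S0 values of both genes were tight in both lines and clear of S6.

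Of the 64 lost peaks that were enriched at S0, 60 were not enriched at S6. These 60 were chosen here after their values were seen. EID1, an inhibitor of differentiation that binds RB1 and p300, had log2 ratios at 1651 of 2.18, 1.78, 2.24 and 3.25 at S0 and of -0.19, -0.60, 0.71 and 1.12 at S6. The change was -2.14 (edgeR adjusted p 0.0135). TSC22D1, a TGF-beta-induced leucine zipper protein, fell at 1737 from 1.51, 1.71, 1.33 and 1.54 to 0.14, 0.09, 0.19 and 0.39 (change -1.33, edgeR adjusted p 0.0159). Neither transcript changed by the thresholds, and input reads at S0 and S6 were 557 and 330 in EID1 and 1203 and 1592 in TSC22D1.

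MDM2, the ligase that degrades p53, was also among them and fell at 5101 from 1.34, 2.32, 1.66 and 3.04 to -0.20, -0.01, -0.40 and -1.36 (change -3.50). JUN, a subunit of AP-1, fell at 691 from 0.75, 0.35, 1.77 and 1.65 to -1.28, -1.81, -2.46 and 0.00, where the last preparation held no read of either kind. The dual-specificity phosphatase DUSP5 changed by -5.77 at 2401 and its relative DUSP6, which switches off ERK, by -3.89 at 1483. IRS1, the insulin receptor substrate, fell at 4404 from 0.85, 0.13, 1.78 and 1.77 to -1.78, -1.57, -2.63 and -1.55, with no IP read in MEL1 at S6. It was the only called member among the 104 peaks of insulin and mTOR signalling genes, 0.96% against 3.09% of all peaks. The JUN, DUSP5 and IRS1 transcripts were higher at S6, by 1.77, 1.47 and 1.36, while DUSP6 and MDM2 had no call.

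Other such peaks were in SMIM15 (-5.01 at 1990 and -3.15 at 1840), TPT1, a tumour protein under translational control (-2.46 at 3670), and TAF7, a subunit of TFIID (-2.33 at 574). MAT2A, which makes the methyl donor used by the m6A writers, changed by -1.65 at 3951, from 1.40, 1.39, 1.83 and 2.71 to 0.70, 0.46, -0.10 and -0.33, and its transcript fell by 1.01. In MAT2A all S6 ratios lay below all S0 ratios in both lines. Of the 60, 5 were in transcripts that rose, 11 in transcripts that fell and 44 in transcripts with no call, where 18% of all genes were higher and 13.3% lower.

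Of 94 peaks of pluripotency genes 4 (4.26%) were lost, near the 3.09% of all peaks, and none gained, with a median change of -0.41, and 30 of them had a change above 0. L1TD1, a stem cell RNA-binding protein that derives from a transposon, held 3 of the 4. At 2301 its log2 ratios went from 1.25, 1.14, 1.15 and 1.95 to -0.41, -0.64, -0.20 and 0.81 (change -1.63, edgeR adjusted p 0.0520), and at 1151 from 0.41, 0.43, 0.52 and 1.40 to -0.76, -0.50, -1.12 and -1.11. Its transcript fell by 5.73, leaving 46 and 19 input reads at S6 in these peaks. DPPA4, a chromatin protein of pluripotent cells, had 649 IP reads at 1997 at S0 and none at S6, where 42 input reads remained, and was called under 12 of 24 alternatives. Its mean log2 ratio moved the other way, from -2.71 to -1.42, on the scale with the added 1. Both genes with a call in this list thus had little transcript left to measure at S6. The other 90 peaks, of 18 further genes and of these, did not pass the test.

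Signalling pathways showed few calls. Among 80 peaks of Notch genes 3 were lost. RBPJ, the DNA-binding effector of Notch, fell at 5351 from between -0.37 and 0.67 to between -2.63 and -1.60 (change -3.64, edgeR adjusted p 0.0250) and also at 5601. HES1, a Notch target that restrains endocrine fate, fell at 101 from -1.73, -1.69, -0.15 and 0.49 to -2.65, -2.51, -2.69 and -3.87 (change -2.39, edgeR adjusted p 0.0972), while its transcript rose by 1.83. The HES1 call was kept under 10 of 24 alternatives. Of 174 Wnt pathway peaks 3 were lost, in the antagonist SFRP1 (-1.67), the receptor FZD7 (-4.33) and the coactivator BCL9L (-2.69). These calls were kept under 13, 15 and 13 of 24 alternatives, the stages overlapped in FZD7 and BCL9L, and in H1 alone neither passed (edgeR adjusted p 0.400 and 0.303). Of 75 peaks of TGF-beta, BMP and activin genes 2 were lost, both in SMAD5, a BMP effector. SMAD5 4951 was enriched at S0, at 1.56, 1.71, 1.56 and 1.25, and reached -0.03, 0.05, 0.47 and 0.18 at S6 (change -1.39, edgeR adjusted p 0.0359), with changes of -1.64 in H1 and -1.26 in MEL1. The shares of lost peaks in these lists, 3.75%, 1.72% and 2.67%, were near the 3.09% of all peaks.

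Of 33 peaks of m6A writer genes 3 (9.09%) were lost, against 3.09% of all peaks, and none gained. The lost peaks were 2 in ZC3H13, a scaffold of the writer complex, and 1 in METTL16, which methylates U6 and MAT2A. ZC3H13 7016 went from -0.86, -1.05, -0.87 and -0.31 to -1.90, -1.90, -2.40 and -1.76, a change of -1.30 (SE 0.29, edgeR adjusted p 0.0468). The groups did not overlap, but the peak was depleted at S6. METTL16 5885 had 274 IP reads at S0 and 2 at S6, and was called under 12 of 24 alternatives. Its transcript fell by 1.34, the only writer with an expression call among 7. Of 33 reader peaks 1 (3.03%) was lost, IGF2BP1 1151, with 85 IP reads at S0 and 4 at S6. None of the 5 peaks of ALKBH5, the demethylase that was measured, was called. METTL3, METTL14 and FTO were not analysed here.

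Of 40 peaks of secretory and beta cell function genes, 1 (2.5%) was lost, close to the share of all peaks, and none gained. CHGA, the granule protein chromogranin A, went at 1151 from log2 ratios of 0.16, 0.19, -0.69 and -0.96 to -1.40, -1.12, -1.90 and -1.31. The change was -1.11 (SE 0.25, edgeR adjusted p 0.0484), at -1.42 in H1 and -0.90 in MEL1, while the transcript rose by 2.54. It was called under 14 of 24 alternatives. The IP reads of this peak rose from 3310 to 5336, less than its input reads, which rose from 1151 to 5185.

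Hepatic markers had 4 lost peaks of 32 (12.5%) and duct and acinar markers 5 of 14 (35.7%), against 3.09% of all peaks. The hepatic list also held 1 gained peak (3.12% against 1.03%), the FGA peak described above. VTN and AFP, proteins secreted by liver, had 2 lost peaks each. The 4 hepatic losses had at most 1 read in H1 at S0, so their S0 ratios rest on MEL1. VTN 1228 had 4 input reads at S0 in all, so its S0 ratio cannot be read. At S6 VTN 78 had log2 ratios of -2.58 and -1.71 in H1 and of -6.45 and -4.86 in MEL1. KRT19, a keratin of duct cells, changed by -1.02 at 87 while its transcript rose by 3.43, and all its log2 ratios were -2.58 or lower. The KRT19 call was kept under 11 of 24 alternatives. SPP1, osteopontin, known from duct and bone, had 4 lost peaks and no expression call. The most read of them, 1151, went from 0.03, -0.13, 1.0 and 1.79 to -0.92, -0.91, -0.93 and -1.59 (change -1.88). Without input, on IP counts alone, the changes of the AFP, VTN, CHGA and KRT19 peaks turned positive.

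Zinc finger genes of the ZNF family held 1147 peaks with a high median log2 ratio of 1.34 at S0 and 1.23 at S6. Of these 3 were gained and 21 lost, 0.26% and 1.83%, both below the shares of all peaks. ZNF24 had the most, with 6 lost peaks of 10, among them 4808, which went from a mean of 1.54 to 0.50. ZNF146 3751 fell from 0.80, 0.95, 1.54 and 2.80 to -0.44, -0.19, -0.67 and -0.12 (change -1.90, edgeR adjusted p 0.0377), with MEL1 above H1 at S0 and no such order at S6. Of 58 peaks of genes picked by ribosomal protein symbols 8 (13.8%) were lost, against 3.09% of all peaks, and none gained. They lay in only 3 of the 20 genes, RPL7L1 (3), RPL37 (3) and RPL13A (2), so the share does not describe the list at large. RPL37 304 went from 0.89, 0.66, 0.27 and 0.64 to -0.74, -0.80, -0.43 and -0.27. Among 47 mitochondrially encoded peaks, depleted at a median of -4.68 at S0 and -4.36 at S6, 1 (2.13%, also against 3.09%) was lost, in the ribosomal RNA MT-RNR2 at 1301, where the stages overlapped.

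Most genes with a called peak held a single one, although a peak that was not called may still have changed. Of 209 genes with a gained peak and at least another peak, 192 had a single gained peak and none had all of its peaks gained. Their other peaks had a median change of 0.14 and moved up in 122 genes. Of 554 such genes with a lost peak, 384 had a single lost peak and 2 lost all, and the other peaks had a median of -0.47, against -0.02 over all peaks, and were below 0 in 431 of 552 genes. The other peaks of genes with a lost peak thus moved in the same direction in most genes. The most lost peaks were in ZNF24, in NORAD, a noncoding RNA that binds PUMILIO proteins (6 of 9), and in HSP90B1, a chaperone of the endoplasmic reticulum (6 of 11). The most gained peaks were in AHNAK, a giant scaffold protein (5 of 33), and in SUGP2 (3 of 18). The near-identical GOLGA8A and GOLGA8B also had 3 each and share reads. In genes with more than 1 peak, 30.2% of the 232 gained and 16% of the 802 lost peaks were the last listed of their gene, against 23.8% of 23766 peaks. Of all gained peaks 14.1% and of all lost peaks 0.50% were the single peak of their gene, against 8.96% of all peaks.

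SETD5, a chromatin protein whose loss alters brain development, had calls in both directions. Its peak at 5901 rose from 0.04, -0.09, -0.54 and -0.21 to 0.91, 0.85, 0.84 and 0.86 (change 1.07, edgeR adjusted p 0.0296). Its peak at 8751 fell from -3.18, -2.63, -0.35 and 0.62 to -5.20, -4.70, -4.06 and -5.03 (change -4.49, edgeR adjusted p 0.0105). The lost stretch started far below input in H1 and near it in MEL1, and the transcript had no expression call. The gain at 5901 was called under 13 of 24 alternatives and the loss at 8751 under 22. ASXL1, a Polycomb regulator, gained 1.78 at 7851 and lost at 10601, where it had 7 input reads at S0. In MALAT1, a nuclear noncoding RNA, the peak at 8101 gained 1.42 and that at 4501 changed by -2.43.

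H1 and MEL1 were then tested apart, each on its own 8 libraries. In H1 1207 peaks were gained (4.63%) and 1939 lost (7.43%), and in MEL1 210 were gained (0.805%) and 905 lost (3.47%). These counts moved with the processing. With trimmed-mean scaling over all libraries of the line, 664 were gained and 3574 lost in H1, and 151 and 1128 in MEL1. Without the preparation block they were 1296 and 2116 in H1, and 788 and 2056 in MEL1. The MEL1 gains also moved when single preparations were left out. Each line's calls were then read in the other line, which had no part in choosing them. Of 1206 peaks gained in H1 and tested in both, 63.3% rose in MEL1, where 47.8% of all peaks did, and 26 (2.16%) were also called gained. Of 1939 lost in H1, 75.2% fell in MEL1, against 52.2% of all peaks, and 381 (19.6%) were also called lost. Of 210 gained in MEL1, 59.0% rose in H1 against 45.5%, and 26 (12.4%) were called. Of 903 lost in MEL1, 88.0% fell in H1 against 54.5%, and 381 (42.2%) were called. Over all peaks the share called in the other line was 0.81% for gains and 3.47% for losses in MEL1, and 4.63% and 7.44% in H1.

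The 26 peaks gained in both lines were all in the joint call as well, and 16 of them were enriched at S6. They lay in IHH, NR2F1, FOXA1, CDX2, ARID3B, MYO18A, SPTBN1, DST, TNC, FILIP1L, SUGP2 (with 2 peaks), TARBP2, EIF6, PLCE1, SHC2 and AASS, among others. Of the 381 lost in both, 360 were in the joint call and 14 were enriched at S0 (ZNF770, DUSP5, both SMIM15 peaks, MDM2, IRS1, ZNF146, JUN and 6 more among those).

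Opposite calls in the lines were few. There were 6 peaks gained in H1 and lost in MEL1 (in ZNF146, ILRUN, RAB7A, HNRNPUL2 and LASP1 among others) and 7 lost in H1 and gained in MEL1 (in MT-ND3, NPIPA9, MTATP6P1, GGCT, FAM118A, MT-RNR1 and CKB). They include 2 mitochondrial transcripts and a mitochondrial pseudogene copy. Of the 13, FAM118A 5001 was enriched at both stages, at means of 3.20 and 3.54, and changed by -1.02 in H1 and 1.6 in MEL1.

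A direct test of the difference between the lines called 655 peaks (2.51%), 338 with a higher change in MEL1 and 317 with a higher change in H1. Among gained peaks 14 differed (5.19%) and among lost peaks 107 (13.3%). NEK9, a mitotic kinase, is an example: at 4938 the log2 ratios were 2.52 and 2.40 in H1 and 1.27 and 1.14 in MEL1 at S0, and 3.28, 3.37, 3.77 and 3.98 at S6. FBXL5, a sensor of iron, went at 1574 from 1.30 and 1.08 in H1 and -0.92 and -0.72 in MEL1 to 2.18, 1.94, 2.25 and 2.64. In both, the lines lay closer together at S6 than at S0. PPP2CA, the catalytic subunit of phosphatase 2A, went at 3562 from -2.99, -3.02, 0.12 and -0.27 to -4.15, -4.07, -5.48 and -5.32, with no IP read in MEL1 at S6. CD24, a cell surface glycoprotein, went at 848 from -4.04, -3.71, -1.87 and -1.24 to -4.63, -4.79, -6.48 and -6.12. Of 47 mitochondrially encoded peaks 30 were called with a higher change in MEL1 and none with a higher change in H1. The count of 655 over all peaks was not stable when single preparations were left out. It fell without any 1 of the H1 preparations or of the MEL1 S6 replicates, and rose without either MEL1 S0 replicate. The mitochondrial peaks were not tested apart in this way. Over all peaks the changes of the lines correlated at 0.35 (Pearson) and 0.29 (Spearman) over 26104 peaks, and at 0.26 and 0.24 over the 6622 well read and enriched ones, a description across peaks that share genes and libraries.

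**Figure D5:**
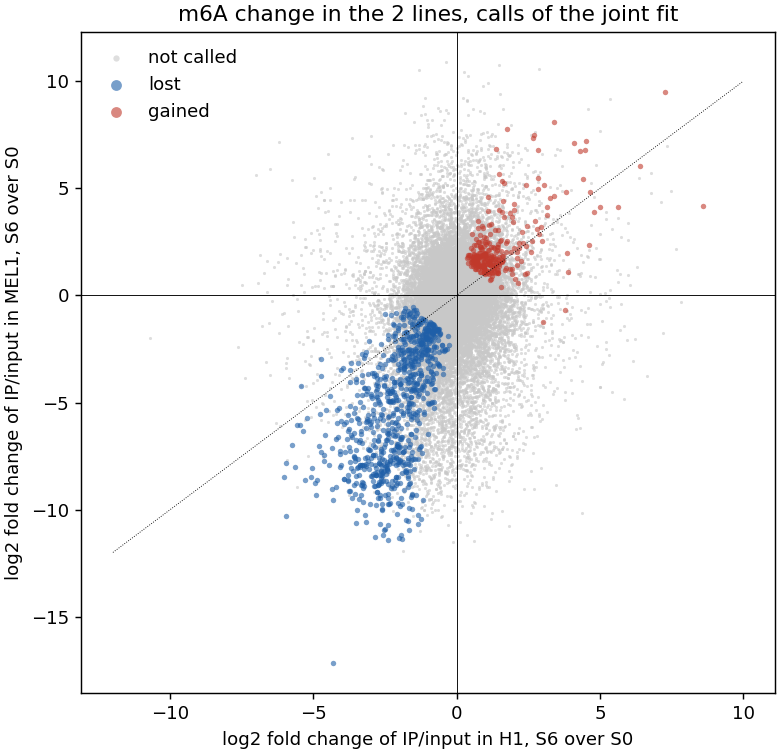
Log2 fold change of IP/input at S6 over S0 in H1 (x axis) and in MEL1 (y axis) for each peak, each from the libraries of its line, with the gained peaks of the joint test in red and the lost ones in blue. The dotted line marks equality. Lost peaks reach further down in MEL1 (median -4.89) than in H1 (median -1.99), and MEL1 values of peaks without an S6 IP read are no bound, as 276 of the lost peaks are.

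Set beside expression, 69 of 247 genes with a gained peak (27.9%) were higher at S6, against 18% of all genes, and 24 (9.72%) were lower. Genes with a lost peak were higher in 60 of 558 (10.8%) and lower in 113 (20.3%) against 13.3%. The ratio and the expression change share the input counts, so these shares are a description. The majority of genes with a gained or lost peak, 154 and 385, had no expression call.

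Among the transcripts the study names for methylation, FOXA1, FOXA2, IHH, GATA6 and HNF4A are given above. The study named these transcripts from comparisons of successive stages, tested with DESeq2. A missing call for S6 against S0 with edgeR is therefore not a contrary result. PLCE1, a phospholipase C, was gained at 3401, from 9 IP and 11 input reads at S0 to 1108 and 20 at S6, with log2 ratios of 2.80, 2.34, 4.57 and 3.80 at S6. NECTIN1, an adhesion molecule, was lost at 4052, from -2.73, -2.49, -1.23 and -1.25 to -4.41, -4.11, -4.70 and -4.53 (change -3.61, edgeR adjusted p 0.0100), and at 2 further peaks. JPT2 was lost at 3251, from -0.83, -0.88, -0.72 and -0.29 to -1.89, -1.82, -3.05 and -2.48 (change -1.67, edgeR adjusted p 0.0270), and at 2 further peaks. In NECTIN1 and JPT2 the S6 values lay below all S0 values and neither peak was enriched at S0. TRO was lost at 901, where a mean log2 ratio of 1.18 went to 0.05, and at 3051, with 25 IP reads at S0 and 2 at S6, a call kept under 10 of 24 alternatives. Not called were RAB10 501, at a change of -3.97 (edgeR adjusted p 0.108) with no IP read in MEL1 at S6, and ACADVL 2101, an enzyme of fatty acid oxidation, at 0.53 (SE 0.25, edgeR adjusted p 0.320), with overlapping stages.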

How the data were processed

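The deposited table holds raw read counts per peak. Per the study's methods, the authors counted reads in bins of 50 bp along each gene of Ensembl annotation 94 and called, merged and counted peaks with MeRIPtools. The aligner and genome build are not given in the sources used here, so no coordinates or sequences are shown. All 32 columns matched a sample label and 0 were left unused for want of one. The 16 S0 and S6 libraries were fitted with edgeR 4.0.16 (R 4.3.3), after trimmed-mean scaling within input and within IP, for peaks with at least 10 reads in total. The quasi-likelihood model had a term for each preparation, for IP, for IP by line and for IP by stage, and left 5 residual degrees of freedom. The p-values were adjusted by the Benjamini-Hochberg method over all peaks. The line difference added an IP by line by stage term, and each line was also fitted alone. Expression was tested on input reads summed over the peaks of a gene, with line and stage as terms. Because input counts cover peaks only, they are not the level of whole transcripts.

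Genes were named by rule: the 12 gained and 12 lost peaks of smallest p with at least 20 input reads at each stage and the same direction in all 4 same-numbered pairs, 1 per gene; called peaks of listed genes; transcripts the study names; and up to 4 peaks by the p of the line difference. Other named peaks, such as those that crossed the enrichment threshold, those of genes called in both directions and those called in both lines, were chosen after their values were seen. The members and lists were chosen with earlier results of these data known. The fit was tested on simulated counts for 26104 peaks, where it found only a minority of the changes put in, so a peak that was not called may have changed. Alternatives covered DESeq2 1.42.0, scaling, filters, blocks and left-out libraries. 3 alternatives were added after seeing the data. A few genes are not reported here.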

Additional observations from a re-analysis of the deposited data

Results flagged for a closer look

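In 14 of 91 named peaks the change differed between the lines by the direct test, edgeR adjusted over all peaks, as it did in 655 peaks in all (2.51%). The NEK9, FBXL5, PPP2CA and CD24 peaks were named for this difference, so the count among named peaks is a description. The differences below are the change in MEL1 minus that in H1, on the log2 scale. It was above 0 in NEK9 4938 (1.82), FBXL5 1574 (2.43) and SOX9 1951 (2.45), where MEL1 started lower at S0. It was below 0 in FAM72B 2184 (-2.04), its near-identical copy FAM72C 1698 (-2.12), L1TD1 1301 (-1.99) and CD24 848 (-5.71). It was also below 0 in MCL1 2222 (-3.91), SPP1 801 (-6.62), FZD7 2701 (-6.16), CHD2 14351 (-6.98), RPL37 2004 (-8.56), PPP2CA 3562 (-9.42) and SPP1 1701 (-9.30). In those last 7 peaks MEL1 had at most 1 IP read at S6, so the size of the difference is no bound.

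Single preparations stood apart from the other 3 of their stage, by Dixon's test, in 5 of 182 groups (2.75%), where chance gives about 1 in 20. They were MEL1 S0 replicate 2 in L1TD1 1151 (log2 ratio 1.40) and L1TD1 2301 (1.95), MEL1 S6 replicate 2 in SPP1 1151 (-1.59) and HES1 101 (-3.87), and MEL1 S6 replicate 1 in MNX1 403 (2.94). The part of these preparations in the differences was not tested.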

How the results depend on the processing

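Where tested, the 1076 called peaks kept their direction under each alternative except IP counts without input (1038) and input summed over the gene (1075). DESeq2 tested 1075 of them, the minimum of 10 input reads at each stage 1057 and the test of enriched peaks 149. The counts moved more. Called, gained and lost peaks were 2417, 486 and 1931 with DESeq2, 2222, 96 and 2126 with library totals only, 9145, 4537 and 4608 with IP counts alone, and 2807, 1205 and 1602 with input summed over the gene. They were 112, 37 and 75 in a fit of all 32 libraries with the preparation block and 65, 15 and 50 without it. Without the preparation block, 162 were gained, while the total and the losses stayed within 1.5 times. With the replicate block the counts were 354, 64 and 290, all among the 1076. The numbers do not pair the samples: deviations of same-numbered preparations correlated at 0.03 in H1 and 0.04 in MEL1. Chosen after seeing the data, the test of enriched peaks alone gave 124, 108 and 16, and IP scaling on enriched peaks gave 155 gained and 1341 lost. The share of gains among calls was 25.1%, and 33.8% with TMM over all 16 libraries, 17.6% with RLE, 13.9% with upper quartile, 10.4% with scaling on enriched peaks and 4.32% with library totals. Leaving out 1 preparation gave 189 to 860 calls, 36 to 356 gained and 153 to 528 lost. There were 340 and 467 without H1 S0 replicate 1 and 2, 542 and 637 without H1 S6 replicate 1 and 2, and 189 without either MEL1 S6 replicate; losses also fell to 504 and 523 without MEL1 S0 replicate 1 and 2. The line difference gave 1316 peaks with DESeq2, 2641 without the preparation block, and 3 to 5342 with 1 preparation left out. H1 alone gave 1417 with DESeq2 and 2001 to 2804 with 1 left out, the lowest without H1 S6 replicate 2. MEL1 alone gave 2221 with DESeq2, 2844 without the preparation block and 775 to 2787 with 1 left out, the highest without MEL1 S0 replicate 1. In such fits the lone sample is assumed to vary like the others. On IP counts alone the change turned positive in AFP 701 (1.69), AFP 401 (2.29), VTN 78 (3.90), VTN 1228 (4.18), CHGA 1151 (1.45) and KRT19 87 (2.30). With 2 preparations per line and stage, and few IP reads at S6 in many lost peaks, the size of a loss is less certain than its direction.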
